A study of Homo sapiens with 39 samples.

Results

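Heat shock and chaperone genes were followed in HepaRG™ cells, an established line of human hepatic progenitors which, once differentiated, resembles hepatocytes and cholangiocytes. The 10 genes were picked by name (HSPA1A, HSPA1B, HSPA6, HSPA8, HSPB1, HSPH1, DNAJB1, HSP90AA1, BAG3 and HSPD1), and each matched 1 of the 20802 gene targets of the AmpliSeq panel, in which gene-specific primers amplify 1 short stretch per transcript. All 10 passed the filter on low counts of the tests below, and 9 of them, all but HSPA6, reached 10 counts throughout the libraries.

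Differentiated cells received a chemical or its vehicle daily for 3 days and were collected 7 h after the last dose, at 55 h of exposure. The DNA damage-inducing (DDI) chemicals were aflatoxin B1 (AFB1, at 0.25, 1 and 2.5 µM), 2-nitrofluorene (2NF, at 10, 50 and 250 µM), cisplatin (CISP, at 2, 5 and 10 µM), etoposide (ETP, at 0.5, 2.5 and 10 µM) and methyl methanesulfonate (MMS, at 50, 100 and 200 µM). The non-DDI chemicals were colchicine (COL, at 0.05, 0.1 and 0.3 µM), 2-deoxy-D-glucose (2DG, at 1.25, 5 and 10 mM), sodium ascorbate (ASC, at 1, 2 and 10 mM), ampicillin trihydrate (AMP, at 1, 3 and 10 mM) and sodium chloride (NaCl, at 1, 2.5 and 10 mM). The 39 libraries comprised 30 treated conditions and 9 vehicle controls (4 DMSO, 4 media, 1 water), each made from RNA of 3 cultures pooled in equal amounts, so a condition was 1 library and the spread between cultures was not measured. AFB1, 2NF, CISP, ETP and COL were given in DMSO, MMS in water and the other 4 chemicals in media, and every chemical had its own control except that AFB1 and COL shared one.

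Heat shock proteins are molecular chaperones, which hold unfolded proteins and help them to fold. Under heat and other protein-damaging stress, the transcription factor HSF1 forms trimers that bind heat shock elements, inverted repeats of the unit GAA, and switch on the inducible members of the family. Hepatocytes export large amounts of protein and keep high levels of the constitutive members, while HSPA6 is known as a strictly inducible member with little expression in unstressed cells.

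The proximal promoters are shown because members that share this regulator can be read side by side in them. Stretches of the RefSeq promoter table (GRCh38.p14, windows from 250 bases before to 50 bases after a transcription start) are given in the direction of transcription. Capitals mark a letter match to units of the heat shock element, 3 units in HSPA6, HSPA8 and HSP90AA1 and only a pair in HSPA1A, HSPA1B and DNAJB1.
HSPA6, chr1:161524446-161524498, plus strand: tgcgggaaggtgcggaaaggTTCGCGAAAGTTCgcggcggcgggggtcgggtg
HSPA8, chr11:123062159-123062211, minus strand: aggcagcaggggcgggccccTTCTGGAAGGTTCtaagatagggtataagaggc
HSP90AA1, chr14:102087100-102087152, minus strand: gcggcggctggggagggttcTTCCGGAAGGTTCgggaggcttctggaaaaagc
HSPA1A, chr6:31815417-31815464, plus strand: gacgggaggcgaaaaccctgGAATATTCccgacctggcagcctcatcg
HSPA1B, chr6:31827613-31827660, plus strand: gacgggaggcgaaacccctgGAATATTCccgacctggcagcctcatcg
DNAJB1, chr19:14518417-14518464, minus strand: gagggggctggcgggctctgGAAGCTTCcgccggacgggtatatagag

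The first 3 of these hold 3 alternating units (GAANNTTCNNGAA or TTCNNGAANNTTC, searched on both strands), a pattern found in 4 of the 10 genes, HSPD1 being the fourth, and in 0.490% of the 35116 windows of the table. The pair GAANNTTC, which any run of 3 units also contains, was found in 8 genes and in 6.77% of the windows. The 10 genes had 14 windows and a gene counted if any of its windows matched, so shares of genes and of windows are not alike. HSPD1, HSP90AA1 and DNAJB1 each also had a window without either pattern. BAG3 and HSPH1 held neither pattern in these windows. A match describes letters only, and binding was not measured here.

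The counts on gene targets summed to between 8.50 M and 16.4 M per library, with a median of 11.2 M. Hepatocyte genes marked the cells in every control, with summed levels of the 10 markers (ALB, APOB, TTR and others) between 25903 and 50353 RPM (counts scaled to a library total of 1000000). Of the 5 blood and endothelial markers, which summed to between 108 and 149 RPM in the controls, PTPRC and VWF were at 0 RPM there, PECAM1 was between 2.72 and 18.7 RPM, CD14 between 23.8 and 43.4 RPM and CD68 between 72.3 and 103 RPM. Of the cholangiocyte markers, KRT19 was between 397 and 1314 RPM in the controls and KRT7, EPCAM and CFTR did not exceed 0.238 RPM. The 6 fibroblast and stellate markers summed to between 122 and 417 RPM in the controls. The libraries least like the others were MMS at 100 and 200 µM and CISP at 5 and 2 µM. Their median correlations across the 11562 targets that reached 10 counts throughout were 0.923, 0.932, 0.954 and 0.956.

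The stress-inducible HSPA6 was the member with the widest range. It was read at 0.209 to 6.35 RPM in the 9 controls, whereas each of the others stayed within a 2.80-fold range over all 39 libraries. Because each gene was read by its own amplicon, levels of different genes were not ranked against each other.

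The level of the members before any chemical was compared between vehicles. HSPA6 was read at 6.35, 0.209, 1.65 and 1.97 RPM in the DMSO controls of CISP, 2NF, AFB1 with COL, and ETP, and at 1.63, 0.546, 0.304 and 0.252 RPM in the media controls of NaCl, 2DG, ASC and AMP. The vehicles overlapped, since the lowest value of all was a DMSO control. BAG3, a co-chaperone that couples HSP70 to small heat shock proteins, ran from 300 to 423 RPM in DMSO and from 273 to 318 RPM in media. Between the 4 DMSO and 4 media controls, none of the 10 members was called at an adjusted p under 0.05 by edgeR or DESeq2 (edgeR quasi-likelihood test with Benjamini-Hochberg adjustment over 13053 genes; other comparisons were adjusted over the genes tested in each), where 5.35% of all genes were. Without the DMSO control of AFB1 and COL, HSPA1B was called, at 0.54 (log2, SE 0.14, edgeR adjusted p = 0.0458), where 907 of 13119 genes were called.

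At an unadjusted p under 0.05, 4 members were higher in DMSO, against 21.0% of all genes at that level in either direction. These were HSPA6 by 2.03 (log2, SE 0.80, edgeR adjusted p = 0.172), DNAJB1 by 0.32 (SE 0.14, adjusted p = 0.207), BAG3 by 0.31 (SE 0.12, adjusted p = 0.180) and HSPA1A by 0.25 (SE 0.11, adjusted p = 0.220).

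**Figure D1:**
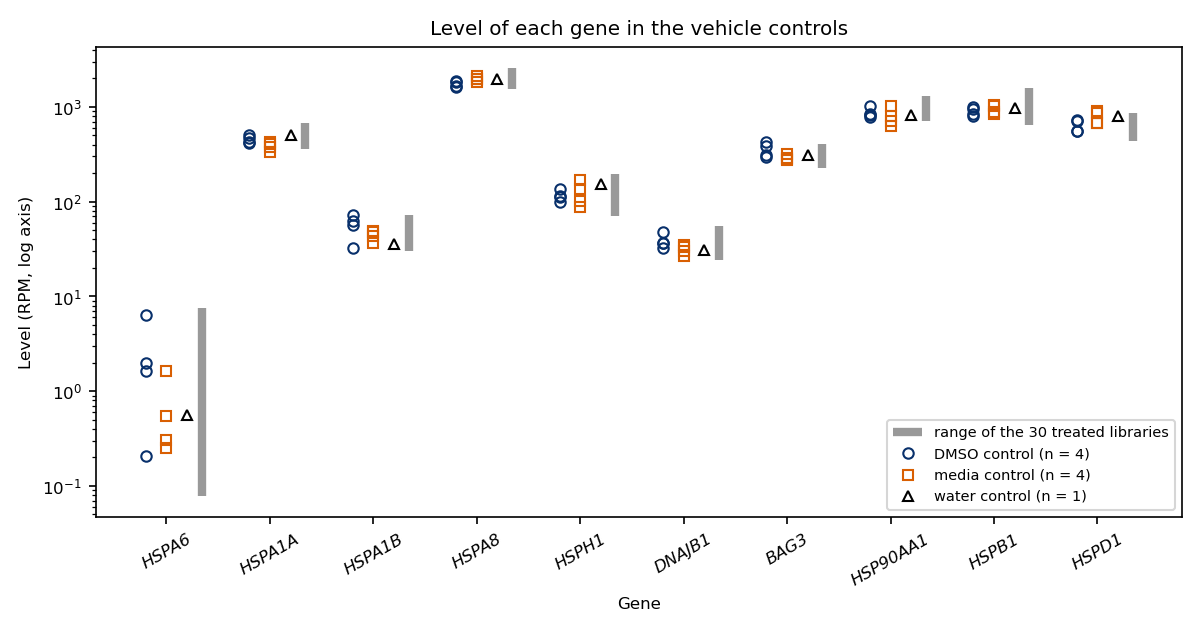
Level of each gene in RPM (log axis) in the 4 DMSO, 4 media and 1 water controls, with a grey bar for the range of the 30 treated libraries. HSPA6 spreads from 0.209 to 6.35 RPM among controls, while the controls of each other gene lie closer together.

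For each treated library a log2 ratio was taken, log2(RPM + 1) in the library minus that in its matched control, which understates how far genes near 0 RPM changed. With 1 library per condition these ratios have no test, so each was set beside the control span of its gene. This span was the largest difference between 2 controls of the same vehicle. It was the wider of the DMSO and media values of the gene, used whatever the vehicle of the chemical. Of the 300 member ratios, 8 (2.67%) passed a 2-fold change in either direction, compared with 2.1% of all gene and condition pairs and 2.97% of those whose target reached 10 counts throughout. All 8 were ratios of HSPA6, 5 higher and 3 lower. The 270 ratios of the other 9 members ran from -0.93 to 0.99.

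The control span was exceeded by 19 member ratios upward (6.33%, with 6.07% over all genes) and by 7 downward (2.33%, with 4.29% over all genes). HSPB1, a small heat shock protein that holds unfolded clients, accounted for 6 of the ratios above its span and 4 of those below. HSPA8, the constitutive cytosolic HSP70, accounted for 5 above and 2 below, on the narrowest span of the 10 genes (0.21). No ratio of HSPA1B, HSPH1, HSP90AA1 or BAG3 passed its span, and HSPA6, whose span was 2.60, passed it in 1 condition. Judged by the controls of their own vehicle alone, further ratios would pass. Among them were HSPH1 in CISP at 2 µM (-0.93, DMSO span 0.45) and HSPA1B in NaCl at 10 mM (-0.69, media span 0.43). HSPA6 in NaCl at 10 mM (-1.074) would pass the media span of 1.068 narrowly.

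HSPA6 (target AMPL8417521) rose with ASC. Its counts were 5 in the control and 4, 16 and 75 at 1, 2 and 10 mM, or 0.304, 0.347, 1.62 and 7.62 RPM. The level at 10 mM was the highest of all 39 libraries, above the 6.35 RPM of the highest control. The RPM ratio to the control was 25.0 (95% exact interval 10.3 to 79.4) at 10 mM and 5.32 (1.86 to 18.6) at 2 mM, intervals that cover counting error only.

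The dose trend asked whether a gene changed steadily with concentration. A slope per concentration step (control, low, mid, high) was fitted for every chemical in 1 edgeR model of all 39 libraries, with a block for each control set and 20 residual degrees of freedom. The HSPA6 slope in ASC was 1.76 (log2 per step, SE 0.31, edgeR adjusted p = 0.0458 over 13812 genes). It was the only call among the 100 member slopes, where 4.23% of all gene slopes were called and, in ASC, 0.0579% of genes. The call lay close to the threshold: it was lost without the low concentration (slope 1.60, adjusted p = 0.137), without the high concentration (1.30, adjusted p = 0.467) and without the ASC control (2.22, adjusted p = 0.950), and also without the control of NaCl, AMP, MMS or AFB1 with COL, with adjusted p from 0.0522 to 0.0559 and slopes from 1.75 to 1.76.

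HSPA6 was also read at higher RPM after 2NF and MMS, with the highest value at the mid concentration in both. In 2NF the counts were 2 in the control and 7, 47 and 15 at 10, 50 and 250 µM, and the RPM ratio at 50 µM was 20.03 (95% exact interval 5.25 to 170) over a control of 2 counts. The 2NF control was the lowest of the 4 DMSO controls, and against the mean of all DMSO controls the log2 ratio fell from 2.10 to 0.85 at 50 µM and from 1.01 to -0.25 at 250 µM. In MMS the counts were 7 in the water control and 11, 34 and 12 at 50, 100 and 200 µM, a ratio of 5.39 (2.35 to 14.4) at 100 µM. The slopes over all 3 concentrations did not pass the test, with 0.87 (SE 0.37, edgeR adjusted p = 0.171) in 2NF and 0.50 (SE 0.34) in MMS. Without the high concentration both did, at 2.29 (SE 0.44, edgeR adjusted p = 0.00794) in 2NF and 1.19 (SE 0.37, adjusted p = 0.0499) in MMS. Of 13736 genes, 479 were called in 2NF and 1398 in MMS in that setting.

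In AFB1 HSPA6 was read at 1.65 RPM in the control and at 1.55, 1.48 and 3.18 RPM, a ratio of 1.93 (95% exact interval 1.10 to 3.43) at 2.5 µM. The same control served COL, where the gene was read at 0.440, 1.29 and 0.759 RPM.

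Lower HSPA6 values were found with CISP and NaCl, and in both the control stood high. The CISP control had 77 counts (6.35 RPM), the highest of the 9 controls, and the treated libraries had 56, 14 and 21 counts at 2, 5 and 10 µM. The slope in CISP was -0.67 (SE 0.25, unadjusted p = 0.0137, edgeR adjusted p = 0.604). Against the mean of the 4 DMSO controls the log2 ratio at 5 µM moved from -1.66 to -0.32 and that at 10 µM from -1.32 to 0.03. The NaCl control had 16 counts, the highest of the media controls, with 8, 4 and 4 counts at 1, 2.5 and 10 mM and a slope of -0.94 (SE 0.38, unadjusted p = 0.0202, edgeR adjusted p = 0.982). Against the mean of the 4 media controls the log2 ratio at 10 mM moved from -1.07 to -0.36.

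In ETP the counts of HSPA6 were 26 in the control and 11, 14 and 5 with a slope of -0.44 (SE 0.33). In 2DG they were 8, 7, 3 and 10, and in AMP 3, 1, 4 and 1, which leaves little precision for a change in either. The slopes of HSPA6 differed between the 10 chemicals (edgeR F test of equal slopes, F = 6.44, adjusted p = 0.00247), a test added after the values were seen, which called 11.0% of all genes. None of the other 9 members was called, with adjusted p from 0.242 for HSPA1B to 0.958 for DNAJB1. HSPA6 shares 27.6% of its 100-base windows with HSPA7, a near copy, so some of its reads may belong to that transcript if the amplicon lies there.

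**Figure D2:**
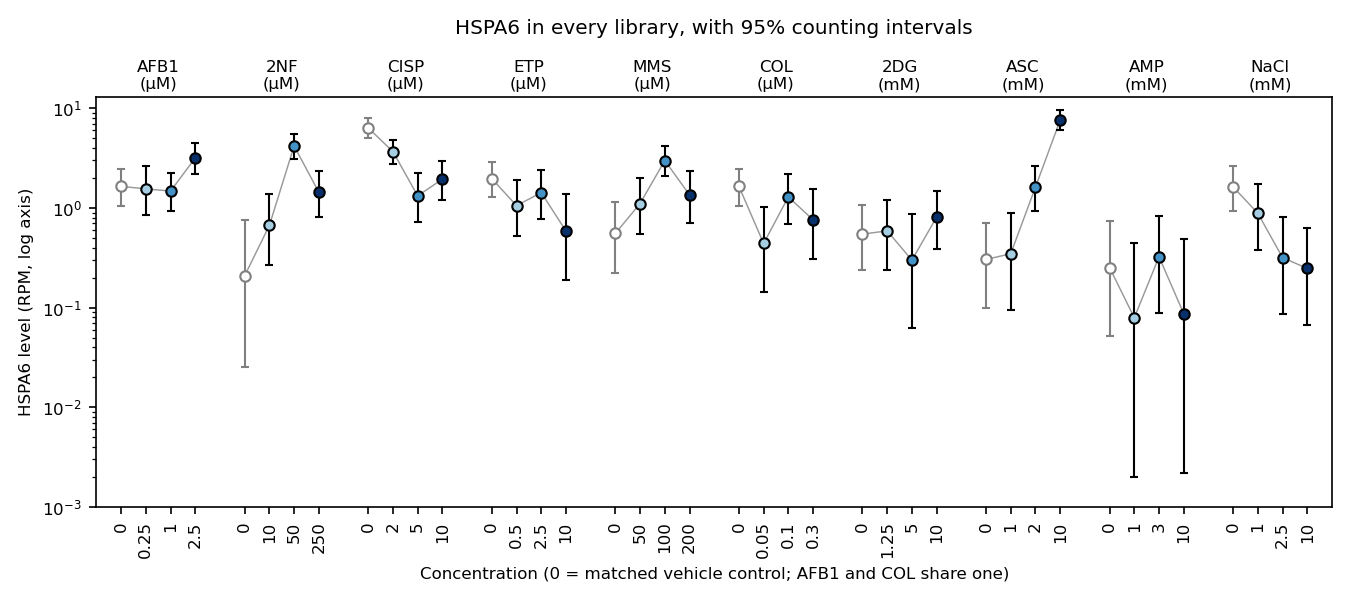
HSPA6 in RPM (log axis) in each control (open circles) and each treated library (filled, darker with concentration), with 95% exact Poisson counting intervals and chemicals side by side. ASC climbs from 0.304 to 7.62 RPM, 2NF and MMS peak at the mid concentration, and CISP and NaCl start from high controls.

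HSPA1A and HSPA1B, the 2 stress-inducible cytosolic HSP70 genes, encode almost the same protein and share 69.9% of the 100-base windows of HSPA1A, so reads could be divided between them. HSPA1A was read at 336 to 511 RPM in the controls and at 358 to 677 RPM after treatment, and HSPA1B at 32.1 to 72.9 RPM and at 30.2 to 72.1 RPM. The treated ranges overlapped the control ranges for both.

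In MMS, HSPA1B was read at 35.9 RPM in the control and at 56.7, 59.5 and 72.1 RPM at 50, 100 and 200 µM, all above the control. The log2 ratio at 200 µM, 0.99, was the largest upward of any member other than HSPA6. HSPA1A was at 506 RPM in that control and at 573, 569 and 650 RPM. The slope of HSPA1B in MMS was 0.27 (log2 per step, SE 0.09) and missed the threshold (edgeR adjusted p = 0.0507), where 15.5% of genes were called. It passed under 7 of 18 alternatives, among them DESeq2 (adjusted p = 0.0359) and library totals in place of TMM factors (adjusted p = 0.0335). Without the water control, the lone sample of its vehicle, the slope was 0.15 (adjusted p = 0.693). Scaled by library totals, the median ratio of the targets that reached 10 counts throughout was itself 0.12 (log2) at 200 µM MMS.

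In NaCl the paralogs were read in opposite directions. HSPA1A was at 379 RPM in the control and at 419, 443 and 484 RPM, while HSPA1B was at 49.5 RPM and then at 50.1, 38.3 and 30.2 RPM, the last being its lowest value of the series. The slopes were 0.14 (SE 0.07, edgeR adjusted p = 0.982) and -0.22 (SE 0.09, adjusted p = 0.982), and neither was called. Both had an unadjusted p under 0.05, as did 639 of the 13812 genes tested in NaCl, while 0.0434% of genes were called at the adjusted p. HSPA1A passed its control span upward in 4 conditions, CISP at 2 µM (677 RPM, the highest of the series), 2DG at 1.25 mM, MMS at 200 µM and ASC at 10 mM.

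HSPA8 does the everyday folding work of the cytosolic HSP70 class. It varied least of the 10 genes, between 1564 RPM in CISP at 5 µM and 2553 RPM in MMS at 100 µM, with a coefficient of variation of 10.7% over 39 libraries against a median of 19.7% over the targets that reached 10 counts throughout. In ASC it was read at 1974 RPM in the control and at 1757, 1712 and 1648 RPM, and was past its span downward at 2 and 10 mM. In COL it was read at 1652 RPM in the control and at 1717, 1908 and 1998 RPM, and was past it upward at 0.1 and 0.3 µM. None of the 10 slopes of HSPA8 was larger than 0.07 in either direction (SE 0.06).

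HSPH1, the HSP110 nucleotide exchange factor, and DNAJB1, the HSP40 that feeds clients to HSP70, work beside the HSP70 proteins. In CISP, HSPH1 was read at 135 RPM in the control and at 70.5, 71.5 and 133 RPM, so the 2 lower concentrations held the lowest values of the series and the highest lay at the control. Over all genes 903 and 680 ratios passed 2-fold at 2 and 5 µM CISP, against 118 at 10 µM. The part of these wide departures in the member values was not tested. The slope of HSPH1 over all steps was -0.01 (SE 0.08). The sign of that slope depended on which libraries entered, with -0.47 (edgeR adjusted p = 0.0398) without the high concentration and 0.40 (adjusted p = 0.0368) without the CISP control. Of all genes 167 of 13736 were called in the first of these fits and 145 of 13784 in the second. In ETP the 3 treated values, 127, 131 and 125 RPM, were all above the control at 98.4 RPM.

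DNAJB1 was read at 26.5 to 48.0 RPM in the controls. It passed its span upward in AMP at 3 mM (33.0 RPM in the control, 54.5 RPM treated) and downward in 2NF at 50 µM (36.8 RPM in the control, 24.2 RPM treated). At the other concentrations of AMP it was at 37.0 and 41.3 RPM, and at those of 2NF at 35.9 and 37.5 RPM, so neither departure followed the concentration.

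HSP90AA1, the inducible cytosolic HSP90, was above its control in 25 of 30 conditions and HSPH1 in 23 of 30, although neither passed its span once. The conditions of a chemical share a control, so these counts hold fewer than 30 independent observations. How often other genes lay above their controls was not counted. Scaled by library totals, the median ratio of the targets that reached 10 counts throughout ran from -0.06 (ASC at 2 mM) to 0.12 (MMS at 200 µM). In MMS, HSP90AA1 was read at 820 RPM in the control and at 1038, 910 and 1317 RPM, the last its highest value. In AFB1 it was at 833 RPM in the control and at 975, 955 and 1241 RPM. Its slopes there were 0.15 (SE 0.08) and 0.13 (SE 0.08). In 2DG it was below the control at 1.25 and 10 mM, with 704 and 828 RPM against 1035 RPM, the highest of the 9 controls.

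In ASC 5 members had slopes with an unadjusted p under 0.05, where 14.2% of all genes did. Beside HSPA6 these were HSP90AA1 (0.25, SE 0.09, edgeR adjusted p = 0.240), HSPH1 (0.25, SE 0.09, adjusted p = 0.256), HSPA1A (0.15, SE 0.07, adjusted p = 0.327) and HSPB1 (-0.22, SE 0.10, adjusted p = 0.343). HSP90AA1 was read at 628, 839, 988 and 1025 RPM from the control to 10 mM, and HSPH1 at 87.2, 110, 121 and 146 RPM. HSPA1A was read at 336, 361, 399 and 453 RPM, and HSPB1 at 1057, 969, 785 and 665 RPM. Every step went 1 way in these 4 series. They were picked by their slopes over the same libraries, so the steps are not a separate observation. The ASC control held the lowest HSPA1A, HSPH1 and HSP90AA1 and the highest HSPB1 of the 9 controls, and without it the slopes were 0.16 for HSP90AA1, 0.22 for HSPH1, 0.18 for HSPA1A and -0.25 for HSPB1 (each edgeR adjusted p = 0.974). The summed hepatocyte markers moved in the same libraries, from 25903 RPM in that control, the lowest of the 9, to 36241, 51165 and 41138 RPM, with 0 of 10 markers called and a median slope of -0.08, and their part in these values was not tested. Over all chemicals 11 of the 100 member slopes had an unadjusted p under 0.05, 7 upward and 4 downward, against 12.1% of all gene slopes.

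HSPB1 ran from 651 RPM in NaCl at 10 mM to 1588 RPM in CISP at 5 µM. In CISP it was at 840 RPM in the control and at 892, 1588 and 971 RPM, so the mid concentration alone stood out. That library departed widely, with 680 genes past 2-fold. In MMS it was at 971 RPM and then at 1002, 1500 and 1323 RPM, and in COL at 811 RPM and then at 959, 835 and 1332 RPM. The slopes were 0.16 (SE 0.11), 0.16 (SE 0.11) and 0.18 (SE 0.09), and none was called.

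BAG3 was lowest in COL at 0.1 µM (226 RPM) and highest in a DMSO control (423 RPM), that of ETP. In ETP the treated libraries were all below that control, at 365, 322 and 324 RPM, with a slope of -0.13 (SE 0.07). In MMS it was at 308 RPM in the control and at 306, 360 and 399 RPM, a slope of 0.09 (SE 0.07).

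HSPD1, the mitochondrial HSP60, passed its span upward at 2NF 50 µM (555 RPM in the control, 793 RPM treated) and at CISP 2 µM (559 RPM in the control, 853 RPM treated). At CISP 5 µM it was at 436 RPM, its lowest value, so adjacent concentrations of CISP lay on opposite sides of the control. In COL it was at 727 RPM in the control and at 702, 705 and 540 RPM, a slope of -0.15 (SE 0.10).

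Apart from HSPA6 the 90 member slopes ran from -0.22 to 0.27, both extremes being HSPA1B, with a median of 0.02 and SE from 0.06 to 0.12. In the chemicals that moved many genes, no member was called, although 5.57% of genes were called in AFB1, 8.75% in 2NF, 15.5% in MMS and 12.3% in COL. In ETP 0.0796% of genes were called and in CISP, 2DG and AMP 0.0%. Scaled by library totals in place of TMM factors, the share of upward calls moved from 42.4% to 54.3% in AFB1, from 32.9% to 49.1% in MMS and from 41.5% to 51.5% in COL. Of the 10 hepatocyte markers 5 fell in AFB1, 5 in 2NF, 7 in MMS and 7 in COL, and their summed level was 4463 RPM at 100 µM MMS against 27902 RPM in its control. In CISP none of the 10 was called, and their sum was 50353 RPM in the control, the highest of the 9, and 36601, 27023 and 40150 RPM at 2, 5 and 10 µM. The part of cell identity in the member values was not tested, and fewer hepatocyte-like cells and less of these RNAs per cell cannot be told apart in such libraries.

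**Figure D3:**
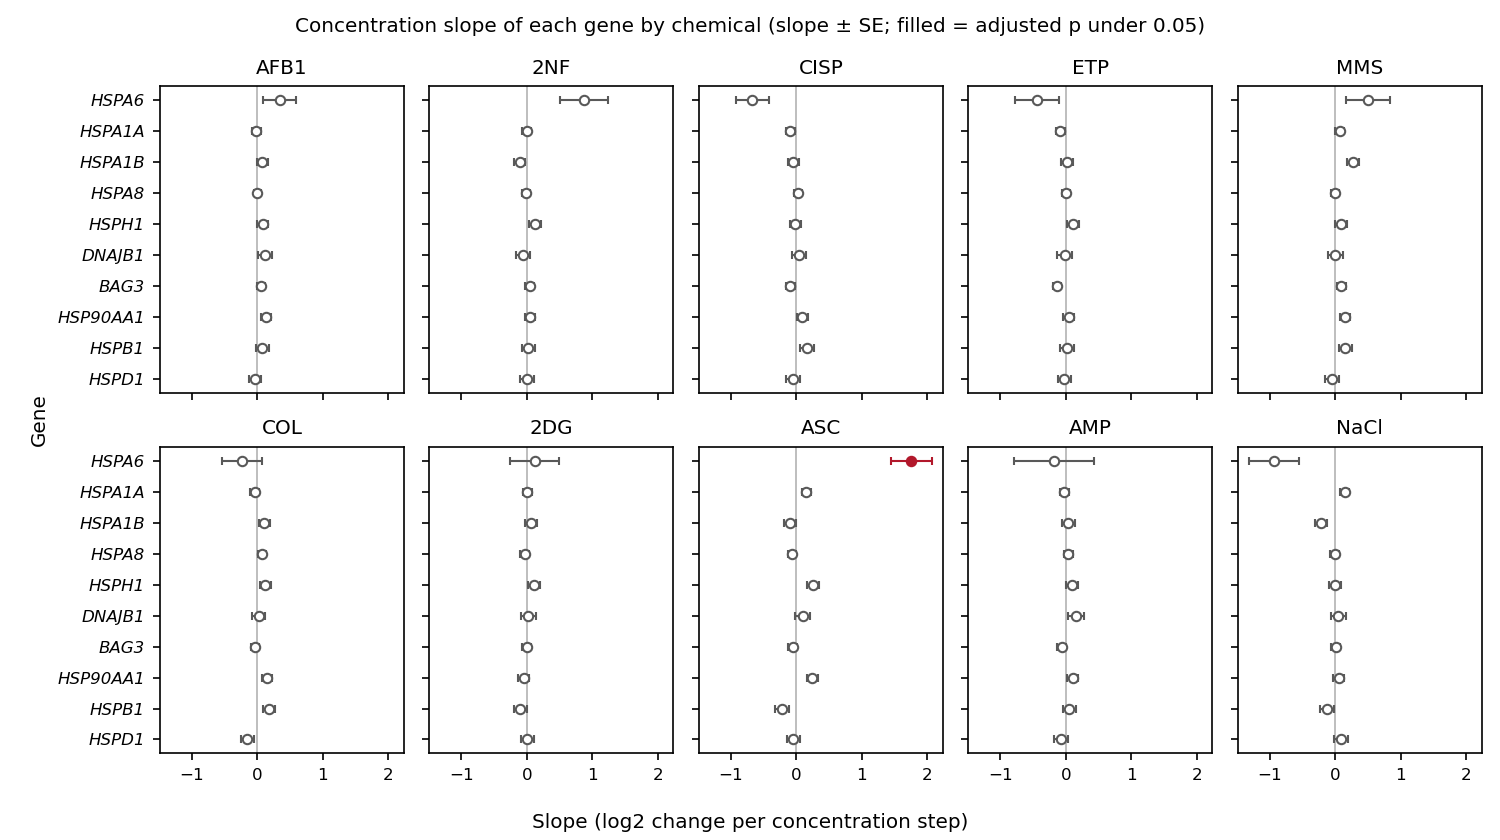
Slope of each gene (log2 change per concentration step, point, with SE as the bar) in 1 panel per chemical, filled where the adjusted p was under 0.05. HSPA6 in ASC, at 1.76, is the filled point, and the slopes of the other 9 genes lie between -0.22 and 0.27 in every panel.

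The classes were compared with chemicals as replicates, 5 DDI against 5 non-DDI, at each concentration level. None of the 10 members was called at any level by edgeR or DESeq2. Of all genes edgeR called 0.0% at the low and mid levels and 0.0515% at the high level. At an unadjusted p under 0.05 edgeR held 0, 1 and 0 members at the low, mid and high levels. Of all genes it held 308 of 13634, 783 of 13626 and 1068 of 13602 at that unadjusted p. At the high level the DDI minus non-DDI differences of the members other than HSPA6 ran from -0.16 (HSPA1A, SE 0.14) to 0.21 (HSPB1, SE 0.20), and HSPA6 was at 0.07 (SE 1.10). The member with the lowest p was HSP90AA1 at the mid level, lower with DDI chemicals with a difference of -0.35 (SE 0.14, edgeR adjusted p = 0.807). Vehicle and class are nearly confounded, since none of the DDI chemicals was given in media.

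The members did not move as a unit. Over the 30 conditions the 45 pairs of members had Pearson correlations of their log2 ratios from -0.78 to 0.64 with a median of 0.05, of which 5 were above 0.5 and 20 were negative. The closest pair was DNAJB1 with HSP90AA1 (0.64), then HSPA6 with HSPH1 (0.59) and HSPH1 with HSP90AA1 (0.58), and the most opposed was DNAJB1 with HSPD1 (-0.78). Conditions of 1 chemical share a control, which enters every ratio, so these values are descriptions. The genes whose ratios most resembled the mean of the 10 members, among 11553 compared, were CTPS1 (0.88), TMTC3 (0.87), RRN3 (0.83), OSGIN2 (0.82) and TERF2 (0.82), and none of these is a chaperone. That mean was unweighted, so HSPA6, with ratios from -1.66 to 2.73 on 1 to 77 counts, weighed most in it.

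Other chaperones, co-chaperones and heat shock factors were followed from lists of 69 further genes, of which 64 were tested. In MMS 4 rose and 1 fell, in COL 2 rose and 2 fell, in AFB1 2 rose, in 2NF 1 fell, and in the other 6 chemicals none was called. These were 7.81% of the 64 in MMS, 6.25% in COL, 3.13% in AFB1 and 1.56% in 2NF, each below the share of all genes called in that chemical (15.5%, 12.3%, 5.57% and 8.75%). In MMS the genes that rose were the small heat shock protein HSPB6 (0.74 per step, SE 0.21, edgeR adjusted p = 0.0194), the endoplasmic reticulum HSP40 DNAJB11 (0.28, SE 0.06, adjusted p = 0.00339), the collagen chaperone SERPINH1 (0.21, SE 0.06, adjusted p = 0.0227) and the chaperonin subunit CCT5 (0.19, SE 0.06, adjusted p = 0.0319), and BAG6 fell (-0.24, SE 0.08, adjusted p = 0.0341). HSPB6 lay near the floor, at 0.605 to 2.06 RPM in the controls and 5 to 60 counts over all libraries. All these MMS slopes rest on 1 water control.

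CRYAB, a small heat shock protein related to HSPB1, was called in 3 chemicals, with slopes of 0.23 in AFB1 (SE 0.07, edgeR adjusted p = 0.0437), -0.62 in 2NF (SE 0.08, adjusted p = 9.92e-06) and -0.26 in COL (SE 0.07, adjusted p = 0.0112). In COL the HSP40 genes DNAJB4 (0.45, SE 0.13, adjusted p = 0.0157) and DNAJB5 (0.24, SE 0.08, adjusted p = 0.0327) rose and the mitochondrial HSP90 gene TRAP1 fell (-0.22, SE 0.06, adjusted p = 0.0115), and in AFB1 the HSP110-type gene HSPA4L rose (0.26, SE 0.08, adjusted p = 0.0415). HSF1 itself was read at 62.9 to 79.9 RPM in the controls and at 61.3 to 101 RPM over all libraries, and its slopes ran from -0.07 in ASC to 0.10 in COL (SE 0.06 in both), none of them called.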

How the data were processed

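RNA of HepaRG™ cells was sequenced by AmpliSeq in 39 libraries, grouped by the sample labels. The authors mapped reads onto the panel's transcripts (hg19), merged the 5 chips by barcode, and deposited counts per target, not normalized. The deposited RPM values are the counts scaled to the library total. The 10 spike-in targets, all at 0, were left out.

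Counts were tested with edgeR 4.0.16 (TMM, filterByExpr, quasi-likelihood test, R 4.3.3), with Benjamini-Hochberg adjustment over all genes tested, and ratios were computed on log2(RPM + 1) with Python 3.11.15. The fits were tested on simulated counts. Alternatives were DESeq2 1.42.0, other scalings, no filter, log2 dose, libraries left out, pseudocount 0.1 and the vehicle as the block, the last chosen after seeing the data. Counting intervals are exact and ignore amplification, since no molecular identifiers were used. Members and gene lists were chosen with earlier results of these data known. Named were all members, HSF1, markers, the 5 genes most like the members and, per list, up to 3 called genes with the largest slopes. Library totals of 8.50 M to 16.4 M counts limit the precision of HSPA6. The annotation columns of the tables were not used.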

Additional observations from a re-analysis of the deposited data

Results flagged for a closer look

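The slopes of HSPA6 over concentration differed between the 10 chemicals (edgeR F test, F = 6.44, adjusted p = 0.00247). A difference between groups under the same contrast brought it here. The slopes ran from -0.94 (SE 0.38) in NaCl and -0.67 (SE 0.25) in CISP to 0.87 (SE 0.37) in 2NF and 1.76 (SE 0.31) in ASC. The test was added after the values were seen. No control stood apart for any member, with 0 of 20 groups of 4 controls past the limit for a lone value, where chance alone flags about 1 in 20.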

How the results depend on the processing

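Of 1800 slopes of the members refitted under 18 alternatives, 1664 kept their direction and their side of the threshold, 14 passed it newly, 7 fell short of it and 115 changed sign. Of the last, 114 passed the threshold in neither fit, and 1, HSPH1 in CISP, passed it at 0.40 without the CISP control (from -0.018 to 0.40 with each control left out). The largest slope to change sign was HSPA6 in 2NF, from 0.87 to -0.04 with the vehicle as the block. The HSPA6 slope in ASC ran from 1.17 to 2.22 and passed under 11 of the 18, and its adjusted p (edgeR or DESeq2) ran from 0.00303 to 0.950. The number of members called in ASC went from 1 to 0 without the low or the high concentration, and it was 0 to 1 with each control left out. Of all genes 0 were called in ASC without the low or the high concentration. In 2NF the number of members called went from 0 to 1 with DESeq2 (1251 of 13812 genes called) or without the high concentration (479 of 13736 genes), HSPA6 in both. In CISP it went from 0 to 1 without the high concentration (HSPH1), where 167 of 13736 genes were called. It was 0 to 2 with each control left out, the 2 being HSPA1A (-0.36) and HSPH1 (0.40) without the CISP control, where 145 of 13784 genes were called. In MMS it went from 0 to 1 with DESeq2, library totals, log2 dose or without the mid concentration (HSPA1B), to 1 without the high concentration (HSPA6), and was 0 to 1 with each control left out. Of 13812 genes, 2197 were called with DESeq2, 2250 with library totals and 1937 with log2 dose. Without the mid concentration 1614 of 13723 genes were called, and without the high concentration 1398 of 13736. In COL the number of members called went from 0 to 1 without the mid concentration (HSPB1, 0.22), where 1646 of 13723 genes were called. It also went to 1 with the vehicle as the block (HSP90AA1, 0.16), an alternative chosen after seeing the data, where 2808 of 13812 genes were called. Between vehicles it was 0 to 1 with each control left out, the 1 being HSPA1B in a fit where 907 of 13119 genes were called. The causes were not tested.

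Of single conditions, the values past 2-fold went from 8 to 15 with a pseudocount of 0.1, to 3 against the mean of the vehicle's controls and to 0 among targets with 10 counts throughout, and those past the span downward from 7 to 11 against that mean. Against it HSPA6 turned to -0.25 in 2NF at 250 µM and to 0.0269 in CISP at 10 µM. The number of genes called moved with the setting, from 0 to 1670 in AFB1, 269 to 2230 in 2NF, 0 to 167 in CISP, 0 to 70 in ETP, 204 to 2374 in MMS, 93 to 2808 in COL, 0 to 1 in 2DG, 0 to 171 in ASC, 0 to 2 in AMP, 0 to 12 in NaCl, 0 to 12 and 0 to 96 between classes at the mid and high levels, and 227 to 1144 between vehicles. No paired analysis was possible because replicate numbers name only controls, and the trend already blocks on the control set. With 1 pooled library per condition and 1 to 77 counts of HSPA6, depth limits that gene most.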
